A study of Mus musculus with 2 samples.

Results

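The 2 anti-inflammatory cytokine axes of IL-10 and TGF-beta were followed through 7 genes: the cytokine Il10, its receptor chains Il10ra and Il10rb, the cytokine Tgfb1, its receptors Tgfbr1 and Tgfbr2, and Tgfbi, a secreted matrix protein named for its induction by TGF-beta. They were taken by symbol from the 32285 genes of each matrix, and each symbol had 1 row. The cells came from tumors of the mouse colon carcinoma MC38 in wild-type (WT) mice and were sorted as live CD45+ cells, although a cell type label of both samples reads CD45+CD11b+Ly6Chi. One library held unirradiated tumors (Control) and the other tumors collected on day 4 after 1 dose of 20 Gy (IR), and the study's methods give 4 pooled tumors per library. With 1 library per group there was no replicate and no test of irradiation, and every interval below covers counting error only.

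IL-10 binds a heterodimer of IL-10RA, which is found mainly on hematopoietic cells, and IL-10RB, a broadly expressed chain shared with other cytokines of the family. Signalling runs through JAK1, TYK2 and STAT3, and in macrophages it restrains inflammatory genes. TGF-beta1 is secreted in a latent form that integrins and thrombospondin can release, binds the type II receptor TGFBR2, which recruits and phosphorylates the type I receptor TGFBR1, and signals through SMAD2 and SMAD3. In tumors, regulatory T cells and macrophages are known sources of IL-10, and most leukocytes make TGF-beta1, whose activity depends on its release from the latent complex rather than on its RNA alone.

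Barcodes with at least 1000 UMIs (captured RNA molecules), 200 genes and at most 25% mitochondrial UMIs were kept, 4679 in Control and 3410 in IR, with medians of 7302 and 8269 UMIs. They were placed by marker genes, none of them a member, into lineage gates. Cells of the monocyte and macrophage lineage were split into a monocyte gate (more UMIs of Hp, Chil3, Ccr2, Ms4a4c, Plac8 and Ly6c2 than of the 3 C1q genes; 645 and 976 cells), a macrophage gate (the converse; 1725 and 371 cells) and a nonclassical gate (Ace, Adgre4, Treml4; 69 and 154 cells). Barcodes with strong markers of 2 lineages, 7.39% of Control and 8.68% of IR, were kept apart as mixed, and 12.9% and 8.68% matched no lineage. The T cell gate held 466 and 274 cells and the NK gate 363 and 444, so the sort was broader than Ly6Chi cells. A gate of 87 and 99 barcodes led by collagen genes had only 12.2 and 5.94 CPM (a gene's UMIs relative to all UMIs of the population) of Ptprc, which encodes CD45, and is called stromal here. Gates did not hold the same cells in both libraries: within the macrophage gate, Ly6c2 went from 63.0 to 350 CPM between Control and IR and C1qa from 2796 to 2206 CPM, and the part of this in the results was not tested.

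On GRCm38, Il10 (ENSMUSG00000016529) lies at chr1:131019845-131024974, Tgfbr1 (ENSMUSG00000007613) at chr4:47353222-47414931, Tgfb1 (ENSMUSG00000002603) at chr7:25687002-25705077, Tgfbi (ENSMUSG00000035493) at chr13:56609523-56639562 and Il10rb (ENSMUSG00000022969) at chr16:91406164-91425834, all on the plus strand. Il10ra (ENSMUSG00000032089) at chr9:45253837-45269149 and Tgfbr2 (ENSMUSG00000032440) at chr9:116084293-116175360 are on the minus strand. Il10rb shares its strand with the overlapping gene model Gm21970, and Il10ra with the microRNA gene Mir7086, so their counts carry that uncertainty. RefSeq promoters, from 250 bases before to 50 after the start, were at hand for 4 of the 7 genes (GRCm38.p6), with 2 starts for Tgfbr1, of which the first is shown. Those of the TGF-beta ligand and its receptor pair are shown because the ligand was higher and the receptors lower in the IR macrophage gate, as described below. Capitals mark the GC box GGGCGG on either strand.
Tgfb1, chr7:25686752-25687051, plus strand: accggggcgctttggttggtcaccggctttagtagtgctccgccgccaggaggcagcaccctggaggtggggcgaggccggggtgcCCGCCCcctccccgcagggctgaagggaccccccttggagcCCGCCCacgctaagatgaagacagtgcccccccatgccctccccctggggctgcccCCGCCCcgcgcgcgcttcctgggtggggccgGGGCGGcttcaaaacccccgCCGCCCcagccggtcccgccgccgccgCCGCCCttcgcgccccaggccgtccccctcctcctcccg
Tgfbr1, chr4:47352972-47353271, plus strand: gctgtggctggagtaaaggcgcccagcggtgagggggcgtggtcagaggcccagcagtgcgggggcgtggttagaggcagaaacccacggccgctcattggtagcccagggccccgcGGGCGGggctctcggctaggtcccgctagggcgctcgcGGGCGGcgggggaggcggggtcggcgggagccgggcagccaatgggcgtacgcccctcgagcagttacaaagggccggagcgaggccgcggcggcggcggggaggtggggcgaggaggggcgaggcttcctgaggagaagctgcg
Tgfbr2, chr9:116175314-116175613, minus strand: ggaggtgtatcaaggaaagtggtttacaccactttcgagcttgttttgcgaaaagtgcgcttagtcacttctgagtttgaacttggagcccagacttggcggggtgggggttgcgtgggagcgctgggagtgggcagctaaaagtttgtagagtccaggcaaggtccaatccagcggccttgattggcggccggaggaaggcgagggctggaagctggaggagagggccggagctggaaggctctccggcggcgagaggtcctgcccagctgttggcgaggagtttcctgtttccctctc
The Tgfb1 promoter was 77.0% G and C with 6 GC boxes, the Tgfbr1 promoter 74.7% with 2, and the Tgfbr2 promoter 59.0% with 0. A GC box stood in 35.7% of 32851 mouse promoters of this length. The sequence CCAAT was found 0, 2 and 2 times in the same order (37.4% of all promoters held it) and CAGAC, the core of a SMAD-binding repeat, 0, 0 and 1 times (49.6%). TATAAA (13.6%) and the STAT-type spacing TTCNNNGAA (8.3%) were found in none of the 3. The second Tgfbr1 start, not shown, had 52.0% G and C, 0 GC boxes, 1 CCAAT and 1 CAGAC, and the Tgfbi promoter 63.3% with 2 GC boxes, 0 CCAAT and 2 CAGAC. All motifs were searched on both strands, and a match describes letters only.

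Il10 was the scarcest of the 7 transcripts in UMIs and, over all kept barcodes, the one that differed most between libraries. Over all kept barcodes it had 408 UMIs in Control and 192 in IR, or 9.82 CPM (exact Poisson 95% interval 8.89 to 10.8) and 5.07 CPM (4.38 to 5.84), an IR/Control ratio of 0.52 (0.43 to 0.61). Its UMIs sat in few cells. In Control, 188 cells (4.02%) had any, 37 cells held 50% of them and 1 barcode had 26. In IR, 93 cells (2.73%) had any, 16 cells held 50% and the highest had 12. Because UMIs were clustered in cells, the Poisson intervals of Il10 are narrower than the spread of a repeated sampling of cells would be.

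Among Control populations, a pair stood out for Il10. T cells with a UMI of Foxp3, the regulatory T cell factor, held 80.6 CPM (55.5 to 113; 33 UMIs in 12 of 63 cells). Among exclusive gates of at least 50 cells, their interval did not overlap that of the next in order, Cd4+ T cells without Foxp3 at 24.5 CPM (8.99 to 53.3). It did overlap 2 smaller sets, the 21 barcodes of the B cell gate (50.4 CPM) and the 38 mixed barcodes with a Foxp3 UMI (77.8 CPM, 58.4 to 101). Monocyte or macrophage lineage cells with at least 2 of the resident macrophage markers Lyve1, Folr2 and Timd4 held 77.8 CPM (56.7 to 104; 45 UMIs in 19 of 76 cells). This subset lies within that lineage rather than being a separate gate, and its interval overlapped that of the Foxp3+ T cells. After irradiation the Foxp3+ T cells, now 23 cells, held 55.6 CPM (30.4 to 93.2; 14 UMIs), a ratio of 0.69 (0.34 to 1.32) whose interval spans 1. The IR library had 11 Lyve1/Folr2 cells, with 1 Il10 UMI (6.05 CPM, 0.15 to 33.7), and the ratio was 0.08 (0.0019 to 0.46). These 11 cells also held 502 CPM of S100a9 and 592 CPM of Ly6c2, against 29.4 and 155 CPM in Control, and the macrophage gene C1qa in Foxp3+ T cells was 457 CPM in Control and 15.9 CPM in IR. The part of either in the Il10 values was not tested.

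**Figure D1:**
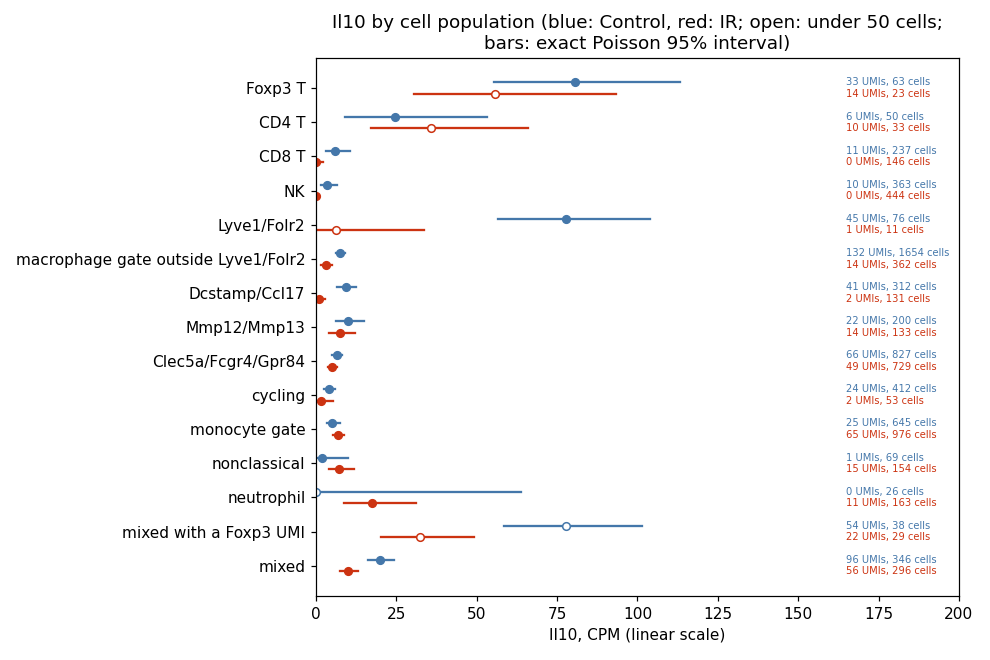
Il10 level in CPM (horizontal axis, linear) for 15 populations, with the exact Poisson 95% interval as a bar, blue for Control and red for IR, and open points for populations under 50 cells. Foxp3+ T cells and Control Lyve1/Folr2 cells lie between 55.6 and 80.6 CPM. The monocyte gate and the macrophage gate without Lyve1/Folr2 cells lie under 10 CPM in both libraries.

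Within the macrophage gate, Il10 was 9.81 CPM in Control (177 UMIs in 80 cells) and 2.90 CPM in IR (14 UMIs in 8 cells), a ratio of 0.30 (0.16 to 0.51). Without the Lyve1/Folr2 cells, a split chosen after the data were seen, the ratio was 0.39 (0.21 to 0.68). Lineage cells with 2 of Dcstamp, Ccl17 and Tnip3 had 41 UMIs in Control and 2 in IR (9.26 and 0.81 CPM), a ratio of 0.09 (0.01 to 0.34). Mmp12/Mmp13 cells differed less, at 9.95 and 7.30 CPM (ratio 0.73, 0.35 to 1.5), as did Clec5a/Fcgr4/Gpr84 cells at 6.39 and 4.98 CPM (0.78, 0.53 to 1.14).

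In the monocyte gate Il10 was 5.03 CPM in Control (25 UMIs in 13 cells) and 6.83 CPM in IR (65 UMIs in 32 cells), a ratio of 1.36 with an interval from 0.84 to 2.25. This direction depended on the mixed barcodes: when they were given to the lineage of the higher score, the ratio became 0.68 (0.48 to 0.98). In IR, 4 monocyte-gate cells held 36 of the 65 UMIs. Empty droplets had a higher Il10 level than the monocyte or macrophage gate, 15.7 CPM in Control and 10.5 CPM in IR. Free RNA was estimated at 13.1% (Control) and 5.68% (IR) of the Il10 UMIs of the monocyte gate. For the macrophage gate the estimates were 7.98% and 7.55%. Thinned to 2000 UMIs per cell, 0.81% of Control (0.26% to 1.88%) and 1.48% of IR monocyte-gate cells (0.81% to 2.47%) had an Il10 UMI, against 1.72% (1.16% to 2.46%) and 0.28% (0.01% to 1.53%) of the macrophage gate. Mature dendritic cells, set beside them as a low-Il10 population, had 0 of 117 and 0 of 140 thinned cells with a UMI, which allows shares of up to 2.56% and 2.14%. All 4 thinned gate shares lie under those limits. In full counts mature dendritic cells held 0 UMIs in Control (upper limit 3.77 CPM) and 1.32 CPM in IR (0.16 to 4.77). Those intervals lie below the Control macrophage gate (8.42 to 11.4) and the IR monocyte gate (5.27 to 8.71) and overlap the Control monocyte gate (3.26 to 7.43) and the IR macrophage gate (1.58 to 4.86). Mature dendritic cells were lowest for Il10 among ranked Control gates in these same data, so this order describes levels and tests nothing. In IR, CD8 T cells, NK cells, cDC2 and stromal cells held 0 UMIs.

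Among other lymphocytes, Il10 rested on few cells. Cd4+ T cells without Foxp3 had 6 UMIs in Control (24.5 CPM) and 10 in 33 IR cells (35.9 CPM), a ratio of 1.46 (0.48 to 4.90). CD8 T cells had 11 UMIs in 4 Control cells, 9 of them in 2 cells, and 0 in IR. NK cells had 10 UMIs in 4 Control cells, 7 of them in 1 cell, and 0 in 444 IR cells. Both sums are under the 20-UMI minimum, and no fold is given for them because IR held 0. The sum of the Cd4+ T cells is under that minimum as well. IR neutrophils held 17.4 CPM (8.70 to 31.2), from 11 UMIs in 3 of 163 cells, 8 of them in 1 cell. The 21 Control barcodes of the B cell gate held 50.4 CPM (25.2 to 90.3), from 11 UMIs in 4 cells, 7 of them in 1 cell, and the 8 of IR had 0 UMIs. Mixed barcodes held 96 UMIs in Control, 26 of them in 1 barcode, and 56 in IR (19.8 and 10.0 CPM). Of these UMIs, mixed barcodes with a Foxp3 UMI, 38 and 29 in number, held 54 and 22. A large share of Il10 RNA could therefore not be given to 1 lineage.

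**Figure D2:**
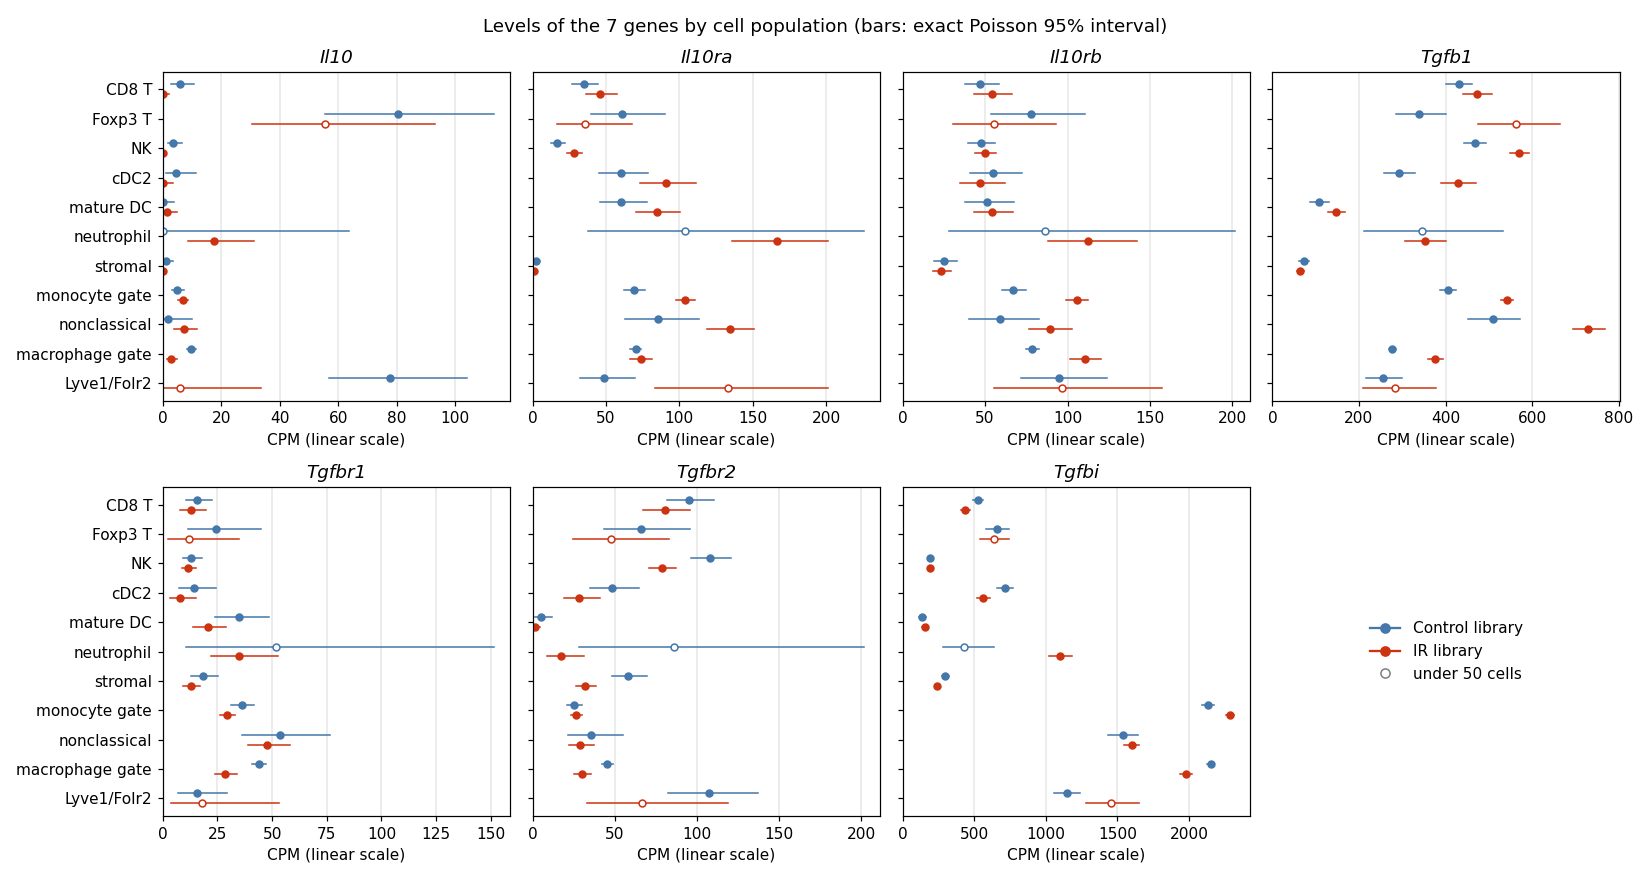
Levels of the 7 genes in CPM (horizontal axes, linear) in 11 populations, blue for Control and red for IR, with exact Poisson 95% intervals and open points for populations under 50 cells. Tgfbi is highest in the monocyte and macrophage gates (1980 to 2285 CPM), Tgfbr2 in NK and CD8 T cells and, in Control, also Lyve1/Folr2 cells. Il10ra is near 0 in the stromal gate.

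Tgfb1, the ligand of the other axis, was spread over nearly all leukocytes and was higher in IR in every gate of the ratio plot except stromal. None of these plotted ratios reached 1.5-fold. Outside the plot, ratios ran from 0.83 (0.66 to 1.03) in T cells outside the Cd8, Cd4 and Foxp3 sets to 5.21 (2.68 to 9.95) in the small B cell gate. Intervals spanned 1 in neutrophils (1.02), mast cells or basophils (1.04) and Cd4+ T cells without Foxp3 (1.03). Over all kept barcodes Tgfb1 was 314 CPM in Control (13045 UMIs) and 441 CPM in IR (16697 UMIs), a ratio of 1.40 (1.37 to 1.44). Nonclassical monocytes had the highest level of the populations with at least 50 cells in both libraries, 510 CPM (452 to 572) and 730 CPM (694 to 767). NK cells followed at 468 and 570 CPM. In Control their interval overlapped that of the nonclassical gate and in IR it did not. Mature dendritic cells (107 and 147 CPM) and stromal cells (72.6 and 64.0 CPM) were lowest.

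The monocyte gate held 406 CPM (388 to 424) and 542 CPM (527 to 557), a ratio of 1.34 (1.27 to 1.41), and the macrophage gate 277 CPM (270 to 285) and 377 CPM (360 to 394), a ratio of 1.36 (1.29 to 1.43). Taken as 1 lineage, monocytes and macrophages gave a larger ratio, 1.66 (1.61 to 1.72), than either gate, and the IR library held more of the gate with the higher level. Conventional cDC2 gave 1.47 (1.26 to 1.71), NK cells 1.22 (1.14 to 1.30) and CD8 T cells 1.10 (0.995 to 1.22). Foxp3+ T cells went from 340 to 564 CPM (1.66, 1.30 to 2.11) on 23 IR cells. Of cells thinned to 2000 UMIs, 52.3% and 59.8% in the monocyte gate, 40.8% and 44.0% in the macrophage gate and 55.7% and 67.5% in the NK gate had a Tgfb1 UMI. The stromal gate gave 17.3% and 8.51%, and so these shares stood above it. RNA in empty droplets differed alike, 279 and 413 CPM (1.48, 1.38 to 1.59), and free RNA was estimated at 2.08% to 4.99% of the UMIs of the monocyte and macrophage gates.

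**Figure D3:**
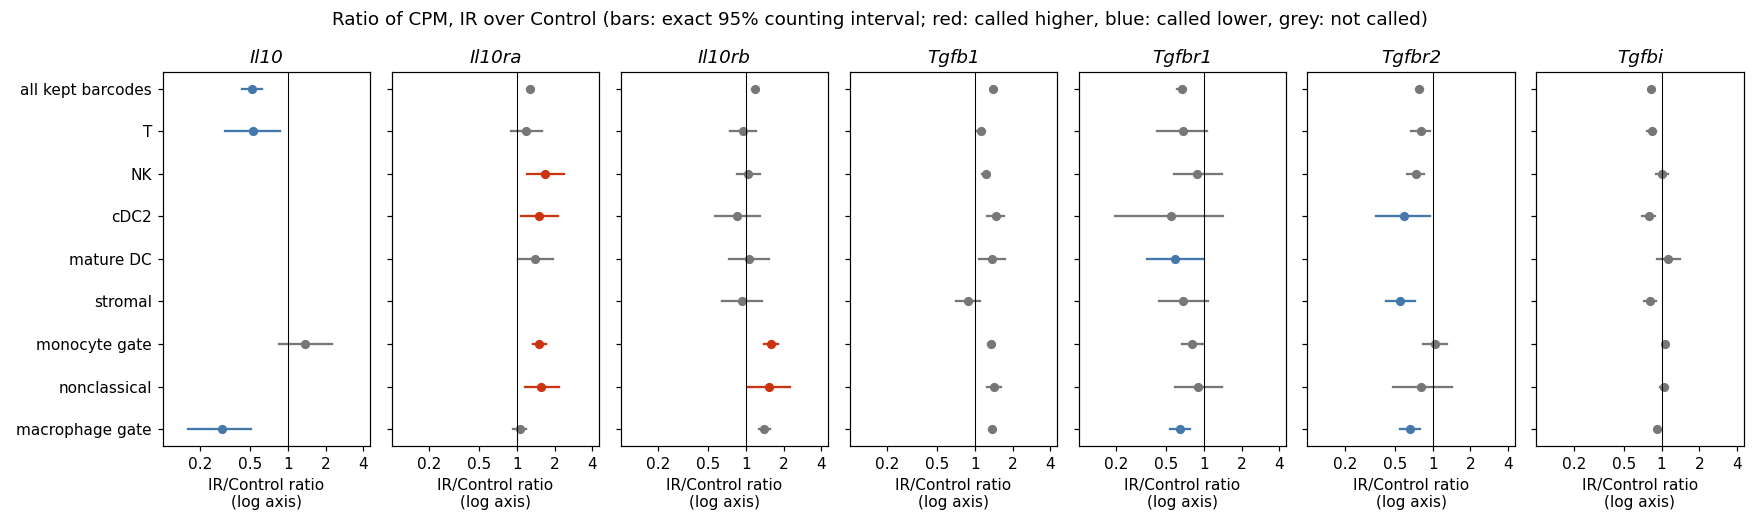
IR/Control ratio of CPM (horizontal axes, log scale) for each gene in all kept barcodes and 8 gates, with exact 95% counting intervals, where both libraries together had at least 20 UMIs and neither had 0. Red and blue mark ratios of 1.5-fold or more, up or down, whose interval excludes 1; Il10ra and Il10rb are red in the monocyte and nonclassical gates, and Il10, Tgfbr1 and Tgfbr2 blue in the macrophage gate.

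Both IL-10 receptor chains were higher in the monocyte gate of the IR library than in that of Control. Il10ra, the ligand-binding chain, was 69.0 CPM (61.9 to 76.7) in the Control and 104 CPM (97.5 to 111) in the IR monocyte gate, a ratio of 1.51 (1.33 to 1.71). In the nonclassical gate it was 85.6 and 134 CPM (1.57, 1.15 to 2.18). The macrophage gate differed little, at 70.1 and 73.5 CPM (1.05, 0.93 to 1.18). Among other cells Il10ra was 16.8 and 28.2 CPM in NK cells (1.68, 1.20 to 2.39), 60.4 and 91.0 CPM in cDC2 (1.51, 1.07 to 2.14) and 60.3 and 84.5 CPM in mature dendritic cells (1.40, 1.02 to 1.94). CD8 T cells, at 34.7 and 46.0 CPM, had an interval that spans 1 (1.32, 0.93 to 1.88). IR neutrophils had the highest level of the populations with at least 50 cells, 166 CPM (136 to 201), and overlapped the nonclassical gate. Stromal cells, which lie outside the hematopoietic lineage, had 4 and 3 UMIs in all and 0 of 81 and 0 of 94 thinned cells with a UMI (limits of 3.70% and 3.19%), against 11.7% and 18.9% of the monocyte gate and 14.5% and 15.5% of the macrophage gate.

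Il10rb, the shared chain, had a narrower range than Il10ra over Control gates of at least 50 cells, 25.3 to 78.6 CPM against 1.95 to 85.6 CPM. For both genes the stromal gate was lowest, and neighbouring intervals overlapped in Control except at that gate. Il10rb was 67.0 CPM (60.0 to 74.6) in the Control and 106 CPM (99.4 to 113) in the IR monocyte gate, a ratio of 1.58 (1.39 to 1.79). The macrophage gate held 78.6 CPM (74.6 to 82.8) and 110.5 CPM (101 to 120), a ratio of 1.41 (1.27 to 1.55), and the nonclassical gate 58.8 and 89.1 CPM (1.52, 1.04 to 2.27). In NK cells (1.05, 0.84 to 1.30), T cells (0.95, 0.75 to 1.20), mature dendritic cells (1.06, 0.74 to 1.54) and stromal cells (0.93, 0.65 to 1.34) the intervals span 1. In IR the 3 monocyte and macrophage gates and neutrophils (89.1 to 112.5 CPM) stood above all other lineage gates of at least 50 cells, the highest of which was mature dendritic cells at 54.1 CPM.

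The TGF-beta receptors went the other way in the macrophage gate. Tgfbr1, the type I receptor kinase, was 43.9 CPM (40.9 to 47.1; 793 UMIs) in the Control and 28.6 CPM (24.0 to 33.8; 138 UMIs) in the IR macrophage gate, a ratio of 0.65 (0.54 to 0.78). Subsets were drawn from the whole monocyte and macrophage lineage, can overlap, and are not confined to the macrophage gate. The Clec5a/Fcgr4/Gpr84 subset had 729 IR cells, against 371 in the IR macrophage gate. The ratio was 0.48 (0.35 to 0.66) in Dcstamp/Ccl17 cells and 0.57 (0.38 to 0.82) in cycling cells. It was 0.58 (0.39 to 0.84) in Mmp12/Mmp13 cells and 0.70 (0.61 to 0.81) in the larger Clec5a/Fcgr4/Gpr84 subset. Lyve1/Folr2 cells, with 9 and 3 UMIs, gave 1.17 (0.20 to 4.67). The monocyte gate showed a smaller difference, 36.2 and 29.4 CPM (0.81, 0.67 to 0.99), and mature dendritic cells 34.7 and 20.5 CPM (0.59, 0.35 to 0.99). NK and CD8 T cells had little of it: 12.9 and 11.5 CPM in NK cells and 15.7 and 13.0 CPM in CD8 T cells, with intervals of the ratio that span 1. Control Foxp3+ T cells held 24.4 CPM (11.7 to 44.9). T cells outside the Cd8, Cd4 and Foxp3 sets held 23.6 CPM (13.2 to 38.9) in Control. Both intervals overlapped that of the Control monocyte gate (31.1 to 41.9). Over all kept barcodes the ratio was 0.67 (0.61 to 0.72), just short of the 1.5-fold limit.

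Tgfbr2, the type II receptor, was highest in lymphocytes among the exclusive gates of at least 50 cells. In Control it was 108 CPM (96.3 to 121) in NK cells and 95.5 CPM (81.9 to 111) in CD8 T cells, and in IR 78.8 CPM (71.1 to 87.2) and 80.7 CPM (67.4 to 95.9). The ratio in NK cells was 0.73 (0.63 to 0.85). Mature dendritic cells had 5 and 2 UMIs among 123 and 147 cells, below every neighbour in the order of levels. The macrophage gate of Control held 45.6 CPM (42.5 to 48.8) and that of IR 30.0 CPM (25.3 to 35.3), a ratio of 0.66 (0.55 to 0.79), while in the monocyte gate it was 25.4 and 26.5 CPM (1.04, 0.84 to 1.30). Control macrophages thus held more Tgfbr2 than Control monocytes, and in IR the 2 gates overlapped. The Lyve1/Folr2 subset of Control had 107 CPM (82.1 to 137), which overlapped the intervals of Control NK and CD8 T cells. The 11 cells of IR had 66.5 CPM (33.2 to 119). Cd4+ T cells without Foxp3 were at 131 CPM (89.4 to 184) in 50 Control cells and 57.4 CPM (32.8 to 93.2) in 33 IR cells, a ratio of 0.44 (0.23 to 0.82). Theirs was the highest Control level among populations of at least 50 cells, and its interval overlapped those of NK and CD8 T cells. The ratio was also low in cDC2 (0.59, 0.35 to 0.96) and stromal cells (58.0 and 32.0 CPM; 0.55, 0.42 to 0.72).

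Tgfbi, the matrix protein, was by UMIs the most abundant of the 7, with 65020 UMIs in Control and 48788 in IR. Its level was highest in the monocyte and macrophage gates: 2134 CPM in the Control and 2285 CPM in the IR monocyte gate (1.07, 1.05 to 1.10), and 2150 and 1980 CPM in the macrophage gate (0.92, 0.90 to 0.94). The nonclassical gate was lower, at 1537 and 1599 CPM. Thinned to 2000 UMIs, the median cell had 3.5 and 4 Tgfbi UMIs in the monocyte gate and 4 and 3 in the macrophage gate, and 89.5% to 92.7% and 87.3% to 90.9% of cells had at least 1. IR neutrophils held 1101 CPM, against 432 CPM in 26 Control cells (ratio 2.55, 1.71 to 3.97), and the 7 IR barcodes of the plasmacytoid dendritic cell gate 1354 CPM, against 1 UMI in 6 Control barcodes. NK cells had 191 and 192 CPM with 9.64% and 10.2% of thinned cells positive, and mature dendritic cells 137 and 155 CPM. CD8 T cells read 528 and 438 CPM with a median of 0 UMIs per thinned cell. The T cell gate held C1qa at 360 and 82.4 CPM as well, and the part of macrophage RNA in its Tgfbi was not tested. Over all barcodes Tgfbi was 1566 and 1289 CPM (0.82, 0.81 to 0.83), further from 1 than in either large gate.

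Set against all genes, the members met the 1.5-fold rule as follows, with the share of all tested genes (at least 20 UMIs in both libraries together) that met it in the same direction. Over all kept barcodes 0 of 7 were higher (all genes 10.3%) and 1, Il10, was lower (6.53%). The monocyte gate had 2 of 7 higher, Il10ra and Il10rb (5.51%), and 0 lower (6.55%). The macrophage gate had 0 of 7 higher (6.06%) and 3 lower, Il10, Tgfbr1 and Tgfbr2 (8.19%). In the nonclassical gate 2 of 6 were higher, again both IL-10 receptor chains (4.68%), and 0 lower (4.41%). Among T cells 0 of 7 were higher (4.64%) and Il10 was lower (4.73%), and among NK cells Il10ra alone of 6 was higher (4.02%) and 0 were lower (5.32%). In cDC2, Il10ra was higher (3.31%) and Tgfbr2 lower (8.14%) of 6 tested. Mature dendritic cells had 0 of 5 higher (7.5%) and Tgfbr1 lower (5.19%), and stromal cells 0 of 5 higher (4.79%) and Tgfbr2 lower (7.43%). The median log2 ratio of all tested genes lay between -0.08 and 0.04 in these populations. With 5 to 7 genes per gate these counts describe the members and carry no test. Several ratios sit near the limit: with mitochondrial and ribosomal protein genes left out of the total, Il10ra and Il10rb of the monocyte gate came to 1.43 and 1.495 and fell short of it, and at no more than 10% mitochondrial UMIs Tgfbr1 and Tgfbr2 of the macrophage gate came to 0.68 and 0.71 and did too.

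**Figure D4:**
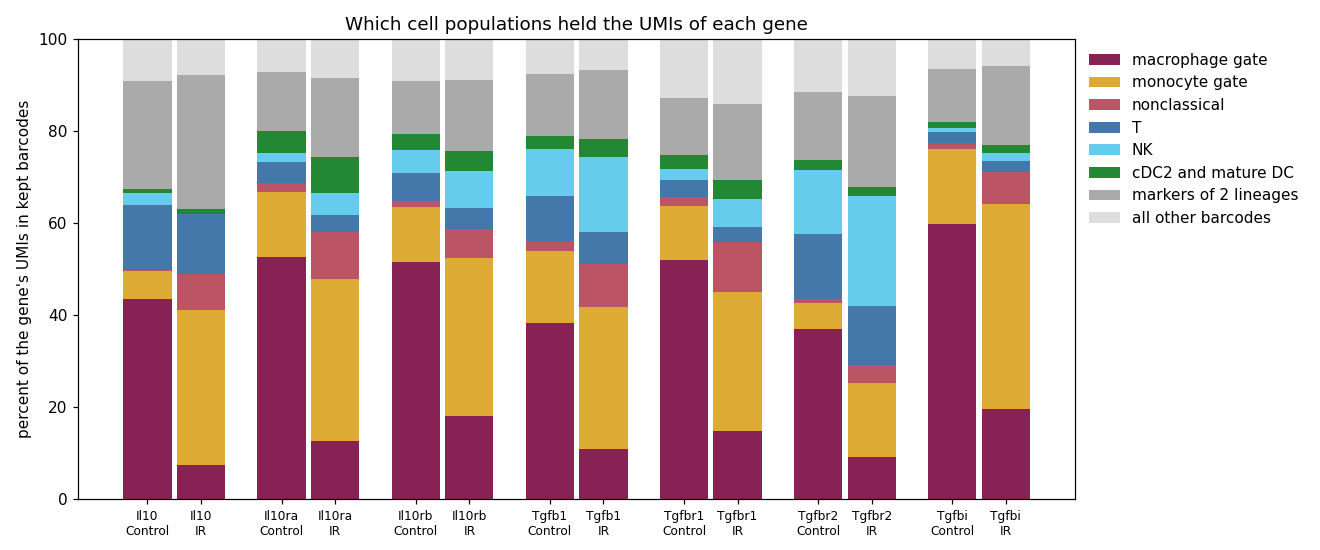
Percent of each gene's UMIs (vertical axis, 0 to 100) that lay in each group of barcodes, 1 stacked bar per library. The macrophage gate held 37.0% to 59.7% of the UMIs of each gene in Control and 7.29% to 19.6% in IR.

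The cells that supplied these transcripts changed with the cell mixture. In Control the macrophage gate held 43.4% of all UMIs of the library and 43.4% of those of Il10, 52.5% of Il10ra, 51.4% of Il10rb, 38.4% of Tgfb1, 51.9% of Tgfbr1, 37.0% of Tgfbr2 and 59.7% of Tgfbi. In IR it held 12.8% of all UMIs and only 7.29% of those of Il10, and the monocyte gate, with 25.1% of all UMIs, held 33.9% of Il10, 30.9% of Tgfb1 and 44.6% of Tgfbi. NK cells held 13.9% of Tgfbr2 UMIs in Control and 23.9% in IR. Mixed barcodes held 23.5% and 29.2% of Il10, more than their 11.7% and 14.8% of all UMIs, and for the other 6 genes between 11.4% and 19.7%.

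**Figure D5:**
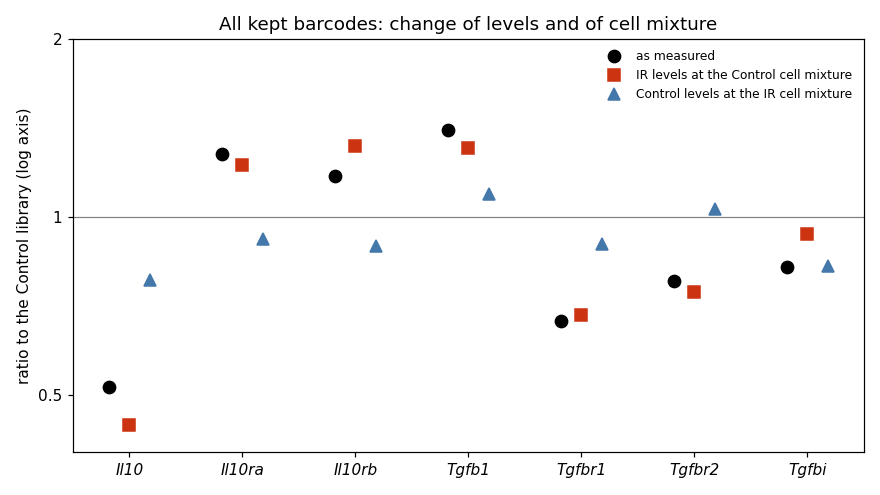
For each gene, 3 ratios to the Control library on a log axis: as measured (circles), with the IR level of each population at the Control cell mixture (squares), and with the Control level of each population at the IR cell mixture (triangles). Il10 is the lowest point of both measured and level-only ratios (0.52 and 0.45), and for Tgfbi the mixture-only ratio (0.83) lies next to the measured one (0.82).

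When the levels of each population in IR were weighted by the Control share of UMIs, the total ratio of Il10 was 0.45, and when Control levels were weighted by the IR shares it was 0.78, against 0.52 as measured. For Tgfb1 the values were 1.31 and 1.10 (1.40 measured), for Tgfbr1 0.68 and 0.90 (0.67) and for Tgfbr2 0.75 and 1.03 (0.78). For these 4 genes the ratio from IR levels lay further from 1 than the ratio from the IR mixture. The populations here were the gates with mixed and unplaced barcodes, so a shift of cells inside a gate counts as level. The part of such shifts was not tested. Il10ra gave 1.23 and 0.92 (1.28) and Il10rb 1.32 and 0.89 (1.17). Tgfbi was the exception, with 0.94 from levels and 0.83 from the mixture (0.82).

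Other genes of both pathways, in lists chosen with earlier results of these libraries known, met the rule in few cases. Among 16 genes of TGF-beta family ligands and latency control, 9 were tested in each gate, and Inhba, which encodes the activin A subunit, was higher in both: 123 and 294 CPM in the monocyte gate (2.39, 2.19 to 2.61) and 37.8 and 202 CPM in the macrophage gate (5.35, 4.85 to 5.91). Thbs1, thrombospondin 1, an activator of latent TGF-beta, was 724 and 1134 CPM (1.57, 1.51 to 1.63) and 192 and 405 CPM (2.11, 1.99 to 2.23). Ltbp3, a latent TGF-beta binding protein, was lower in the monocyte gate (8.05 and 4.41 CPM; 0.55, 0.35 to 0.87), and Gdf15, a distant family member, in the macrophage gate (23.3 and 15.5 CPM; 0.67, 0.51 to 0.85). Nrros, which holds latent TGF-beta on myeloid cells, differed little (1.06 and 1.03), as did the pro-protein convertase Furin (1.15 and 1.14). The median log2 ratio of this list was 0.08 and 0.12, beside -0.06 for all genes in both gates.

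Downstream of the receptors, 0 of 12 SMAD pathway genes met the rule in the monocyte gate, and in the macrophage gate 1 did, Smurf1, a ubiquitin ligase that targets receptors and SMADs (17.8 and 11.2 CPM; 0.63, 0.46 to 0.84). Of all tested genes, 5.51% were higher and 6.55% lower in the monocyte gate and 6.06% and 8.19% in the macrophage gate, and nothing is read from these list counts. The coreceptor Eng, endoglin, was lower in the macrophage gate (21.2 and 13.9 CPM; 0.66, 0.50 to 0.85), the only one of 4 tested receptors and coreceptors to meet the rule in either gate. Among TGF-beta response genes, the integrin Itgae was lower in the monocyte gate (4.83 and 1.26 CPM; 0.26, 0.12 to 0.54), and in the macrophage gate 0 of 4 tested met the rule. Smad7, an inhibitor induced by the pathway, gave 1.05 (0.90 to 1.22) and 0.98 (0.84 to 1.14).

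On the IL-10 side, Socs3, a STAT3-induced inhibitor of cytokine signalling, was the one of 5 signal transduction genes to meet the rule, at 259 and 414 CPM in the monocyte gate (1.60, 1.5 to 1.71). It was 196 and 239 CPM in the macrophage gate (1.22, 1.14 to 1.30). Stat3 itself gave 1.01 in both gates. Ddit4, an mTORC1 inhibitor that IL-10 can induce in macrophages, was the one of 7 response genes to meet it, in both gates: 9.66 and 29.3 CPM (3.04, 2.23 to 4.21) and 12.8 and 28.4 CPM (2.22, 1.78 to 2.75). None of the 6 listed regulators of Il10 did. Maf, a transcription factor that drives Il10, gave 1.41 (1.25 to 1.59) in the monocyte gate, 72.2 and 102 CPM, and 0.87 (0.80 to 0.95) in the macrophage gate, 146 and 127 CPM. Other cytokines and receptors of the IL-10 family were nearly absent, with 1 of 9 at 20 UMIs or more in either gate.

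By Pearson correlation of log2(CPM + 10) over 18 points (9 populations in 2 libraries, which share library, depth and base composition) and 11351 genes, the profiles closest to the members were these. Tgfbi was followed by Cln8 (r = 0.97), Deptor and Zeb2, and Tgfb1 by Bcl2l11 (0.97), Bin2 and Pik3ap1. Il10ra was followed by Chmp2a (0.96), Rasa4 and Vamp8, and Il10rb by Neu1 (0.94), Il1rn and Lilr4b. Tgfbr2 was followed by Fbxl14 (0.94), Ldb1 and Lbr, and Tgfbr1 by Tnfsf13 (0.89), Atp6v1b2 and Scarf1. Il10 had the loosest match, Lrrc8b (0.83), with Gm10642 and Prkar1b next, on 335 UMIs. The 9 populations were exclusive gates with at least 50 cells in both libraries. Foxp3+ T cells, Cd4+ T cells, neutrophils, B cells and the Lyve1/Folr2 subset were therefore not points of their own. Il10 was at most 12.6 CPM in the points used, so its match does not describe the populations where it was highest.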

How the data were processed

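The deposited files are 1 unfiltered matrix of raw UMI counts for each library, which the authors made from Chromium 3′ droplet libraries and aligned to mm10. The processing notes name Cell Ranger 6.0.1, while the matrix headers name Cell Ranger 4. Total UMIs were 48593879 (Control) and 42406461 (IR), and 6 kept barcodes occurred in both libraries.

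UMIs were summed per library and gate and expressed as CPM (Python 3.11.15, numpy 2.4.6, scipy 1.17.1). Markers were listed before gating, and the gating rule was set once the matrices had been seen. A lineage needed 2 or 3 of its markers, scores were scaled to the median of passing barcodes, and barcodes whose second score reached 0.5 of the first were left out as mixed. No doublet caller was used in the main analysis. Scrublet (scanpy 1.11.5) and TMM (edgeR 4.0.16, R 4.3.3) served as alternatives. Counts carry exact Poisson, ratios exact conditional and shares Clopper-Pearson 95% intervals. A ratio met the rule at 1.5-fold or more with an interval excluding 1, for genes of at least 20 UMIs. With 1 library per group no p-value was computed. The 7 members and the lists were chosen with earlier results of these data known, and the text names the members, the 3 genes closest to each by correlation, and listed pathway genes that met the rule or have a role needed to read a member. One listed gene is not reported here. Positions are from GENCODE vM21.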

Additional observations from a re-analysis of the deposited data

Results flagged for a closer look

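Il10, Tgfbr2 and Tgfbi had IR/Control ratios on opposite sides of 1 in the monocyte and macrophage gates, with counting intervals that did not overlap. The ratios were 1.36 and 0.30 for Il10, 1.04 and 0.66 for Tgfbr2, and 1.07 and 0.92 for Tgfbi. With 1 library per group these differences between gates were not tested, and the Il10 ratio of the monocyte gate was 0.68 when mixed barcodes were given to 1 lineage.

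Empty droplets (barcodes of at most 100 UMIs) were used otherwise only to estimate and subtract free RNA. They held more Il10ra and Tgfb1 RNA in IR, with ratios of 1.36 (1.14 to 1.61) and 1.48 (1.38 to 1.59). Il10 in them was lower in IR, at 15.7 and 10.5 CPM (0.67, 0.45 to 0.98).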

How the results depend on the processing

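Of the ratios recomputed under other settings, 170 stayed inside the counting interval of the reported value and 12 left it. Leaving mitochondrial and ribosomal protein genes out of the total gave Tgfb1 ratios of 1.35 (all kept barcodes), 1.26 (monocyte gate) and 1.28 (macrophage gate) and Tgfbi ratios of 0.79, 1.01 and 0.87 in the same order. For Tgfbi, at most 10% mitochondrial UMIs gave 0.84 and median-of-ratios scaling 0.81 over all barcodes, TMM and median-of-ratios scaling both gave 1.12 in the monocyte gate, and removing the highest 6% of Scrublet scores (281 and 205 barcodes, with 24.3% and 25.7% of the mixed ones) gave 0.90 in the macrophage gate. Giving mixed barcodes to the higher lineage turned Il10 in the monocyte gate to 0.68. The causes were not tested. Leaving out the Lyve1/Folr2 cells, added after the data were seen, moved no ratio out of its interval.

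The 1.5-fold rule was crossed more often. Il10ra in the monocyte gate fell to 1.49 without high Scrublet scores, 1.48 with mixed barcodes placed and 1.43 without mitochondrial and ribosomal protein genes, where Il10rb gave 1.495. Tgfbr2 in the macrophage gate was 0.68 at 2000 UMIs or more, 0.71 at 10% mitochondrial UMIs and 0.67 under both other scalings, and Tgfbr1 was 0.68 at 10% mitochondrial UMIs. Tgfbr1 over all barcodes met the rule in 5 settings (0.64 to 0.67). Il10 met it in the macrophage gate and over all barcodes in every setting run.

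Levels at 2000 UMIs or more stayed inside their intervals in 70 of 70 cases. Shares of cells with a UMI moved with thinning depth in 86 of 112 cases, and shares of UMIs moved in 44 of 56 when mixed barcodes were placed. No paired analysis was possible because each group had a single library.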
